A study of Rattus norvegicus with 6 samples.

Results

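The CXC and CX3C chemokines considered here are 8 secreted or membrane-bound chemoattractants, Cxcl1, Cxcl2, Cxcl9, Cxcl10, Cxcl11, Cxcl12, Cxcl16 and Cx3cl1, measured in rat liver after carbon tetrachloride (CCl4). They were matched by gene symbol, through the RefSeq accession that the array files give for each probe. The list was chosen with earlier results of these data known. All 8 were found, on 12 probes, among 15645 gene symbols on the array, and all 8 were among the 11939 genes tested. Livers came from male Sprague-Dawley rats bought at 5 weeks of age, 3 given CCl4 at 100 mg/kg/day and 3 given corn oil alone, the vehicle, with 1 single-colour Agilent array per animal. The treatment protocol gives 9 weeks of dosing whereas the series design gives 28 days, and the files do not settle which holds. CCl4 is activated by cytochrome P450 enzymes in hepatocytes and is a standard agent for liver injury and fibrosis in rodents.

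Chemokines are small proteins that direct leukocyte movement through G protein-coupled receptors. CXC chemokines with an ELR motif before the first cysteines, such as Cxcl1 and Cxcl2, attract neutrophils through Cxcr2, and their genes are classical targets of NF-kappaB. Cxcl9, Cxcl10 and Cxcl11 lack that motif, are induced by interferons, and attract activated T and natural killer cells through Cxcr3. Cxcl12 acts on Cxcr4 and Ackr3 and is produced constitutively by many stromal cells, whereas Cxcl16 and Cx3cl1 are made as transmembrane proteins with a chemokine domain on a mucin stalk, can be shed by the metalloproteases Adam10 and Adam17, and act on Cxcr6 and Cx3cr1.

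Of the 8 genes, 5 are on chromosome 14, where Cxcl11, Cxcl10 and Cxcl9 are direct neighbours in the RefSeq gene table, as are Cxcl2 and Cxcl1. The promoter windows of RefSeq (GRCr8), 250 bases before to 50 bases after each transcript start, were available for all 8 and were searched on both strands for a kappaB motif (GGG and TTCC with any 3 bases between them), an interferon response motif (GAAA and GAAA with any 2 bases between them) and a STAT motif (TTC and GAA with any 3 bases between them). The kappaB motif was found in 4 of the 8 windows, those of Cxcl1, Cxcl2, Cxcl10 and Cxcl11, against 5.37% of 33469 windows of the same length. The interferon response motif was found in Cxcl10 alone of the 8 (3.92% of all windows), and the STAT motif in Cxcl9 and Cxcl11 (8.87% of all windows). None of the 3 motifs was found in the windows of Cxcl12, Cxcl16 and Cx3cl1. A match is a description of the letters and not a measured binding site. The windows below are those of the pair of ELR chemokines, of an interferon-inducible pair whose differences pointed opposite ways, and of Cxcl16, which rose without a match; they are written 5′ to 3′ on the gene's strand, with motif matches in capitals.
Cxcl1, GRCr8 chr14:17479272-17479571, minus strand: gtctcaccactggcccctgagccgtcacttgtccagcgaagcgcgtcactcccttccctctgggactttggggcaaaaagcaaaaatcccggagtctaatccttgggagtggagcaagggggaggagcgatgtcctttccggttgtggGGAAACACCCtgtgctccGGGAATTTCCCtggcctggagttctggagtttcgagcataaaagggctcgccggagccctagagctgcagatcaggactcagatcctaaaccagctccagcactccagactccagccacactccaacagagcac
Cxcl2, GRCr8 chr14:17467206-17467505, minus strand: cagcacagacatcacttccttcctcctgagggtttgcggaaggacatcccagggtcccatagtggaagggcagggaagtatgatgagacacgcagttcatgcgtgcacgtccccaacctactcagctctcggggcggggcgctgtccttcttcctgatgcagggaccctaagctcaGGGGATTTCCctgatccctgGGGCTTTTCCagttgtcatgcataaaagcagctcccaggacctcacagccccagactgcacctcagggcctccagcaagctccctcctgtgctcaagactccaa
Cxcl10, GRCr8 chr14:15988816-15989115, plus strand: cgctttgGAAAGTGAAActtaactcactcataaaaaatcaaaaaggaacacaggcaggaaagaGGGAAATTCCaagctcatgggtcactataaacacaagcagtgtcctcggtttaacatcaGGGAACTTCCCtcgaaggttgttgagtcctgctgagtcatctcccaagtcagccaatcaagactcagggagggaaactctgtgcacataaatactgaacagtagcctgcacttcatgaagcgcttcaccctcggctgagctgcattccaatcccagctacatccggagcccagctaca
Cxcl11, GRCr8 chr14:15973478-15973777, plus strand: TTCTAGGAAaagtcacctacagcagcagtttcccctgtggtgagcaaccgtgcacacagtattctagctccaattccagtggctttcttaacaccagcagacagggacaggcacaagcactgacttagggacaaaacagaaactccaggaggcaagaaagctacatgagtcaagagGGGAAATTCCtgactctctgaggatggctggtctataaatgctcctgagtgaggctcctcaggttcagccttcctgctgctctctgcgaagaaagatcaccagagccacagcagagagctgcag
Cxcl16, GRCr8 chr10:55669901-55670200, minus strand: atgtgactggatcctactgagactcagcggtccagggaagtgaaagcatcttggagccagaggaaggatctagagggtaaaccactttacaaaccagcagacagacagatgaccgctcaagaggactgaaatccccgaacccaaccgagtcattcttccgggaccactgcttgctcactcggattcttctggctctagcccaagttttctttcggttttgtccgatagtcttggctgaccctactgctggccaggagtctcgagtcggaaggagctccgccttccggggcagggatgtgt

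In Cxcl1 the kappaB match GGGAATTTCC starts 84 bases before the transcript start, and its overlap with a match on the opposite strand starting at 83 bases makes 1 near-palindromic stretch. A further match on the opposite strand starts 102 bases before the start. In Cxcl2 the matches GGGGATTTCC and GGGCTTTTCC start 74 and 54 bases before the start. Cxcl10 has kappaB matches 187 and 128 bases before the start, with another on the opposite strand at 127 bases, and its interferon response match GAAAGTGAAA starts at 243 bases. Cxcl11 has the kappaB match GGGAAATTCC 74 bases before the start, the same letters as the first match in Cxcl10.

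**Figure D1:**
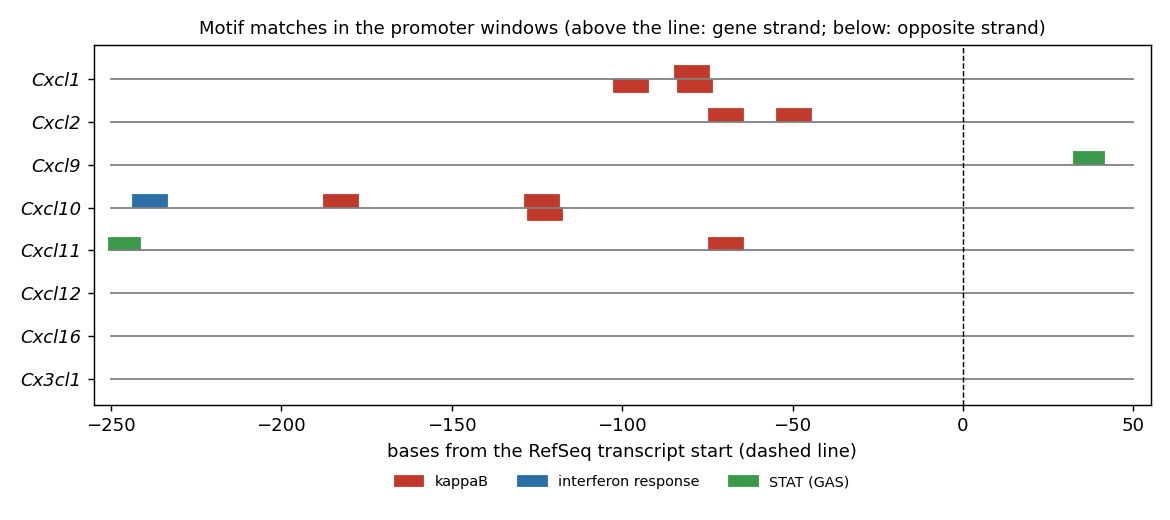
Motif matches in the promoter windows of the 8 chemokine genes, plotted by distance in bases from the RefSeq transcript start. Blocks above a line are on the gene's strand and blocks below it on the opposite strand; the kappaB motif appears in Cxcl1, Cxcl2, Cxcl10 and Cxcl11, and none of the 3 motifs in Cxcl12, Cxcl16 and Cx3cl1.

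All levels below are log2 signals relative to the array's 75th percentile, so that levels of different probes are not comparable with each other, and a change is CCl4 minus corn oil on that log2 scale. Genes were tested with limma, and a gene was called changed at a Benjamini-Hochberg adjusted p below 0.05 over all 11939 genes. By this rule 2 of the 8 chemokine genes changed, Cxcl2 and Cxcl16, against 0.637% of all genes tested, and both were higher in CCl4 livers, as were 0.561% of all genes; 0 of the 8 were called lower, against 0.0754% of all genes. At an unadjusted p below 0.05 it was 5 of the 8, against 19.7% of all genes. The animals of the 2 groups did not overlap for 5 of the 8 genes, against 27.4% of all genes: Cxcl1, Cxcl2 and Cxcl16 were higher in every CCl4 animal (11.5% of all genes), and Cxcl11 and Cxcl12 lower in every CCl4 animal (15.9%). The median change of the 8 was 0.57, beside -0.05 over all genes tested. Cxcl2 entered these counts through the CCl4 group, where its probe was well above background on 3 arrays, against 1 corn oil array. With the filter on all 6 arrays, 1 of 7 chemokine genes tested was called, Cxcl16, against 139 of 11115 genes. In whole liver, more cells of a producing type and more RNA per cell cannot be told apart.

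**Figure D2:**
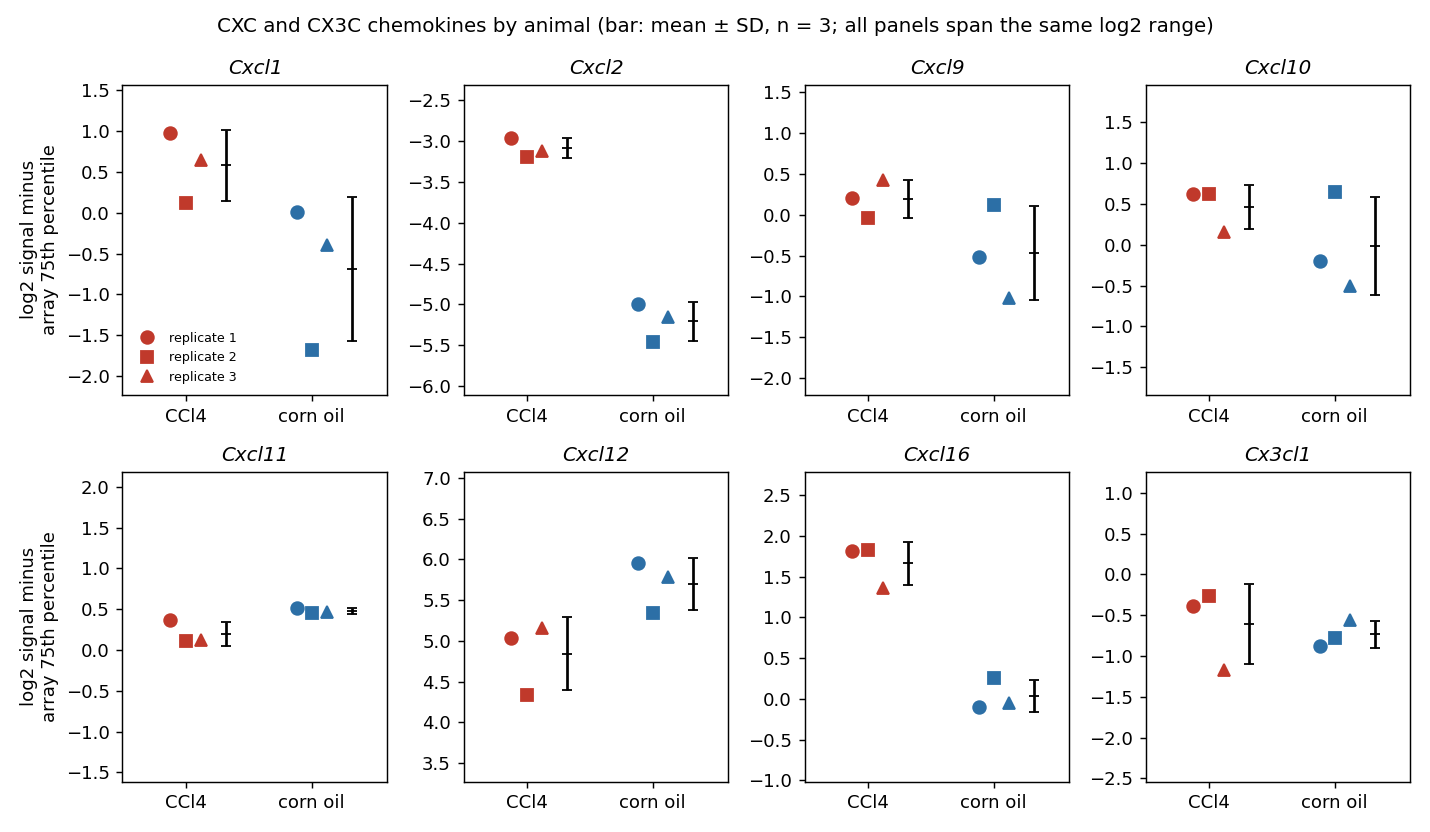
Level of each chemokine gene in each animal (log2 signal minus the array's 75th percentile, vertical axis) in CCl4 livers (red, left) and corn oil livers (blue, right), with the replicate number as the symbol and the mean ± SD (n = 3) in black. Cxcl2 and Cxcl16 show the widest gaps between the groups, and Cxcl9, Cxcl10 and Cx3cl1 overlap.

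The ELR chemokines were both higher in every CCl4 animal, and Cxcl2, known in rat as a macrophage inflammatory protein that recruits neutrophils, passed the test. Cxcl2 was at -2.95, -3.19 and -3.12 in CCl4 livers, against -5.00, -5.47 and -5.16 in corn oil livers. The CCl4 animals lay within a narrow band, and the lowest of them was 1.80 above the highest corn oil animal. The gene rose 4.34-fold (log2 change 2.12 ± 0.15, SE, n = 3 per group; 95% interval 1.75 to 2.48; limma adjusted p = 0.0103). It was dim in corn oil livers: the probe was well above background on 3 of 3 CCl4 arrays but on 1 of 3 corn oil arrays, so that the corn oil level, and with it the fold, is poorly fixed. Under normexp background correction, whose added offset of 50 units weighs most on dim probes, the change was 0.70 (adjusted p = 0.0251). The second Cxcl2 probe read -3.16, -4.03 and -3.47 in CCl4 livers, against -5.56, -5.11 and -6.00 in corn oil livers, where it too was well above background on 1 of 3 arrays. Its groups did not overlap either (change 2.00 ± 0.30; adjusted p = 0.0729 over the 40478 probes tested singly, where the first probe had 0.0133).

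Cxcl1, whose protein is the rat homologue of the keratinocyte chemoattractant of mice, was brighter and more variable. Its single probe read 0.98, 0.12 and 0.65 in CCl4 livers, against 0.01, -1.68 and -0.39 in corn oil livers. The groups were separate by only 0.11, between CCl4 replicate 2 and corn oil replicate 1, and corn oil replicate 2 stood below the other corn oil animals. The change of 1.27 ± 0.46 (2.41-fold; 95% interval 0.15 to 2.38) did not pass (limma adjusted p = 0.215), and it was 0.77 without corn oil replicate 2. Cxcl1, Cxcl2 and Cxcl3 are close paralogues, and whether each probe reads its own gene alone was not tested.

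The receptors of these ligands gave no signal well above background. Cxcr2 had 2 probes and Cxcr1 had 1, and none was well above background on any of the 6 arrays. Of 12 neutrophil markers, Mpo and Fpr2 were not matched by accession. Among the 8 tested, 0 passed in either direction, against 0.637% of all genes, with a median change of -0.30. Their summed signal, in units of the array's 75th percentile, was 2.19 to 4.84 in CCl4 livers and 3.44 to 6.81 in corn oil livers, and the neutrophil protease genes Elane and Ctsg were well above background on fewer than 3 arrays.

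The interferon-inducible chemokines did not pass the test and did not share a direction. Cxcl9 was at 0.21, -0.04 and 0.42 in CCl4 livers, against -0.51, 0.12 and -1.02 in corn oil livers. Corn oil replicate 2 lay among the CCl4 animals, and the change was 0.66 ± 0.30 (95% interval -0.05 to 1.38; limma adjusted p = 0.276). Cxcl10 was at 0.62, 0.62 and 0.15 in CCl4 livers, against -0.20, 0.65 and -0.50 in corn oil livers. Corn oil replicate 2 had the highest Cxcl10 level of all 6 animals, and the change was 0.48 ± 0.31 (95% interval -0.28 to 1.24; adjusted p = 0.432). Without that animal the changes were 0.96 for Cxcl9 (adjusted p = 0.127) and 0.81 for Cxcl10 (adjusted p = 0.147), and without corn oil replicate 3 they were 0.39 and 0.23, neither called.

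Cxcl11, the third Cxcr3 ligand, ran the other way. It was at 0.36, 0.11 and 0.13 in CCl4 livers, against 0.52, 0.46 and 0.46 in corn oil livers. The corn oil animals were nearly equal, and all CCl4 animals lay below them by at least 0.09. The difference was small, at -0.28 ± 0.11 (95% interval -0.55 to -0.01), and did not pass (limma adjusted p = 0.241). Whether the change of Cxcl11 differs from those of its neighbours Cxcl9 and Cxcl10 was not tested.

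Within corn oil livers, Cxcl9 and Cxcl10 ranked the animals alike, with replicate 2 highest, then replicate 1, then replicate 3. The same order held for 7 of 13 interferon gamma pathway genes, among them the guanylate-binding protein gene Gbp5 and the class II transactivator gene Ciita, and for 2 of 5 receptors, Cxcr3 and the Cxcl12 receptor gene Cxcr4, as it did for 16.8% of all genes tested. It also held for 7 of 17 T and NK cell markers, including Cd3d, Cd3e and Cd3g, which encode parts of the T cell receptor complex. In the remaining lists it held for 4 of 8 neutrophil, 4 of 12 stellate, 2 of 16 macrophage, 1 of 6 cholangiocyte, 0 of 8 endothelial and 0 of 10 hepatocyte markers, 2 of 11 NF-kappaB pathway genes, 1 of 6 processing enzymes and 0 of 5 other CXC ligands. This order was noticed after the values were seen and is given as a description. T and NK cell markers as a list had a median change of -0.04. Of the 17, 0 were called higher (0.561% of all genes) and 1 lower (0.0754% of all genes), the granzyme gene Gzma. Their summed signal was 133 to 142 in CCl4 livers and 152 to 173 in corn oil livers. Nearly all of that sum is 1 probe, that of Tbx21, at 6.99 to 7.36 across the animals. Whether that probe reads Tbx21 alone was not tested, so the sum is a poor measure of T and NK cells. Without it, a choice made after seeing the values, the sums were 6.15 to 6.74 in CCl4 livers and 6.28 to 8.61 in corn oil livers. The part of T and NK cells in the levels of Cxcl9 and Cxcl10 was not tested.

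Cxcr3 itself, on T and NK cells, was at -2.78, -2.46 and -2.70 in CCl4 livers, against -2.81, -2.33 and -3.01 in corn oil livers. The groups overlapped (change 0.08 ± 0.20; limma adjusted p = 0.859). Of 16 interferon gamma pathway genes, 13 were tested, while Ifng, Socs1 and Ido1 were well above background on fewer than 3 arrays. Of the 13, 0 passed, against 0.637% of all genes. They had 12 positive changes, against 5113 of all 11939 genes, and a median of 0.41. The largest differences were those of Gbp5 (0.78 ± 0.27; adjusted p = 0.197), Ciita (0.76 ± 0.26; adjusted p = 0.199) and the immunoproteasome gene Psmb9 (0.67 ± 0.17; adjusted p = 0.117). Gbp5, Ciita, Psmb9, Jak2 and Tap1 were each higher in all 3 CCl4 animals than in any corn oil animal. That is 5 of 13, against 11.5% of all genes. Irf1, an interferon-induced transcription factor, was at -0.10 ± 0.12 (adjusted p = 0.671).

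Cxcl12, the homeostatic chemokine, was read by 3 probes, and all 3 were lower in every CCl4 animal. The brightest was at 5.04, 4.33 and 5.16 in CCl4 livers, against 5.96, 5.34 and 5.79 in corn oil livers. Its change of -0.85 ± 0.27 (1.81-fold lower; 95% interval -1.50 to -0.21) did not pass (limma adjusted p = 0.169). A second probe was at 3.78, 3.73 and 4.03 in CCl4 livers, against 5.03, 4.47 and 4.03 in corn oil livers. There CCl4 replicate 3 and corn oil replicate 3 were nearly equal, and the change was -0.67. The third probe was at 3.60, 2.96 and 3.33 in CCl4 livers, against 4.33, 3.80 and 3.89 in corn oil livers, a change of -0.71. All 3 probes share their direction, though the brightest carries the accession of one RefSeq transcript of the gene and the other probes that of another.

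Cxcr4 and Ackr3, the signalling and the scavenging receptor for Cxcl12, had positive differences that did not pass. The brighter Cxcr4 probe was at -2.92, -2.81 and -2.15 in CCl4 livers, against -3.17, -2.79 and -3.78 in corn oil livers. The groups overlapped by 0.14 (change 0.62 ± 0.31; limma adjusted p = 0.321), whereas on the second probe they did not (change 0.85). Ackr3 was at -2.57, -3.05 and -3.47 in CCl4 livers, against -3.52, -3.76 and -4.08 in corn oil livers. The groups were separate by 0.05 (change 0.75 ± 0.26; adjusted p = 0.200). Stellate and other mesenchymal markers, which include cells known to make Cxcl12, had a median change of 0.45. Of the 12, 10 had positive changes, against 5113 of all 11939 genes, and 0 passed, against 0.637%. For 6 of the 12, every CCl4 animal was higher than any corn oil animal, against 11.5% of all genes. The summed signal of the 12 was 57.5 to 82.4 in CCl4 livers and 43.0 to 52.1 in corn oil livers. The brightest of them, Col3a1 (change 0.73) and Col1a2 (0.99), weigh most in that sum. Dcn (1.03), Des (0.85), Rgs5 (0.74) and Vim (0.66) had differences of like size. The rest were Reln (0.24), Col1a1 (0.16), Hand2 (0.11), Pdgfrb (0.05), Lrat (-0.02) and Acta2 (-0.24). Of 12 endothelial markers, Stab1, Stab2, Clec4g and Vwf were not matched by accession. The 8 tested had a median of 0.06, and 0 passed, against 0.637% of all genes. Their sums were 47.6 to 59.5 in CCl4 livers and 55.2 to 67.0 in corn oil livers. The part of stellate or endothelial cells in the level of Cxcl12 was not tested.

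Cxcl16, the transmembrane chemokine that also serves macrophages as a scavenger receptor for oxidised lipids, rose on its single probe, which was well above background on all 6 arrays. It was at 1.81, 1.82 and 1.36 in CCl4 livers, against -0.10, 0.26 and -0.05 in corn oil livers. Every CCl4 animal lay above the highest corn oil animal, that of replicate 2. The rise was 3.09-fold (log2 change 1.63 ± 0.17; 95% interval 1.20 to 2.05; limma adjusted p = 0.0252). Unlike for Cxcl2, background correction moved it little, with a change of 1.51 under normexp (adjusted p = 0.0177). Of 18 macrophage markers, Itgax and Timd4 were not matched by accession. Of the 16 tested, 3 were called higher and 0 lower, against 0.561% and 0.0754% of all genes. They had 10 positive changes, against 5113 of all 11939 genes, and a median of 0.20, beside -0.05 over all genes tested. The lipid receptor gene Trem2 (change 4.33; limma adjusted p = 0.0106), Gpnmb (3.04; adjusted p = 0.0462) and the galectin gene Lgals3 (2.36; adjusted p = 0.00729) were those that rose. Differences below 0 that did not pass included the Kupffer cell markers Clec4f (-0.35; adjusted p = 0.247) and Vsig4 (-0.50; adjusted p = 0.262), Cd163 (-0.42; adjusted p = 0.353), Adgre1 (-0.43; adjusted p = 0.370) and the endotoxin co-receptor gene Cd14 (-0.69; adjusted p = 0.364). Among differences above 0 that did not pass were those of Itgam (1.99, limma adjusted p = 0.0665), Lyz2 (0.96, 0.0564) and Marco (0.91, 0.129). Together with the 3 called genes, they make 6 of 16 markers higher in every CCl4 animal, against 11.5% of all genes. The summed signal of all 16 markers was 159 to 178 in CCl4 livers and 130 to 142 in corn oil livers. Within it, Clec4f, the brightest marker, was lower on average in CCl4 livers, whereas Lyz2 and Lgals3 were higher. The part of macrophages in the rises of Cxcl16 and Cxcl2 was not tested.

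Cxcr6, the receptor for Cxcl16 on T and NK cells, was near background. It was well above background on 1 of 3 CCl4 arrays and 2 of 3 corn oil arrays, with a change of -0.23 ± 0.26 (limma adjusted p = 0.643). Cx3cl1, the other membrane-anchored chemokine, was at -0.38, -0.26 and -1.17 in CCl4 livers, against -0.87, -0.78 and -0.56 in corn oil livers. CCl4 replicates 1 and 2 were the highest and CCl4 replicate 3 the lowest of the 6 animals, and the change was 0.13 ± 0.25 (95% interval -0.48 to 0.74; adjusted p = 0.804). A second Cx3cl1 probe also overlapped between the groups, with a change of 0.12. Cx3cr1, the receptor for Cx3cl1 on monocytes and resident macrophages, was at 1.39, 1.26 and 0.69 in CCl4 livers, against 0.82, 1.22 and 1.46 in corn oil livers. CCl4 replicate 3, the lowest for Cx3cl1, was also the lowest for its receptor (change -0.05 ± 0.24; adjusted p = 0.919). That animal was the lowest of the CCl4 animals for 3825 of 11939 genes and for 11 of 12 stellate markers.

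**Figure D3:**
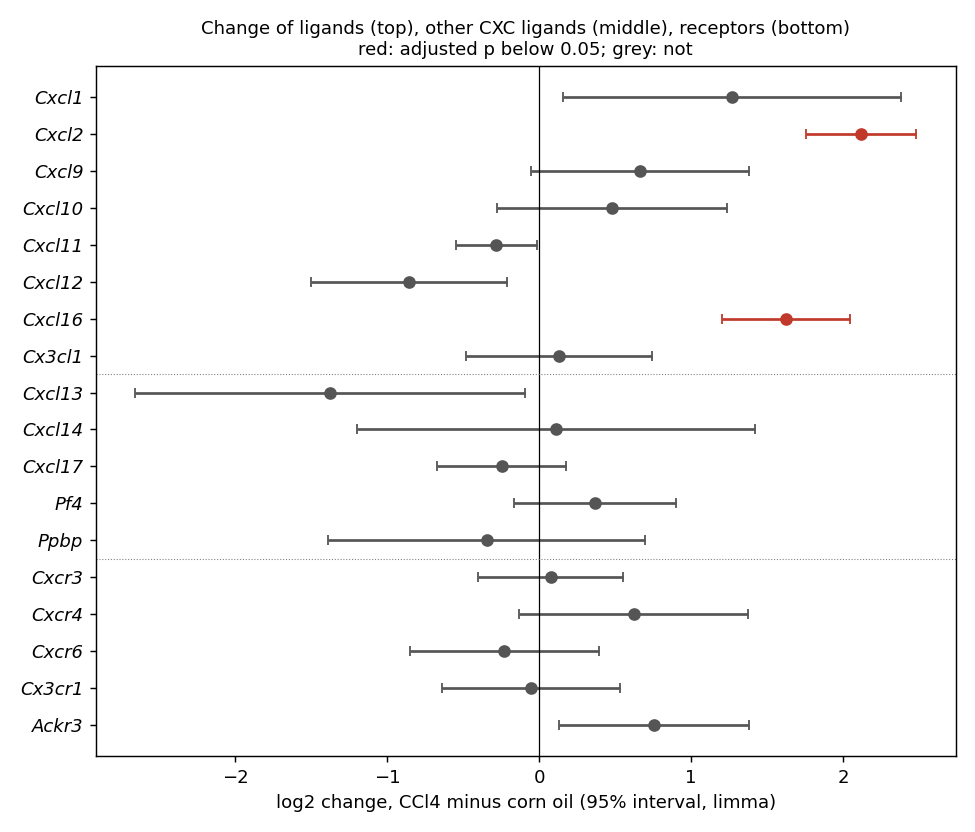
Change of each chemokine gene and of the receptors tested (horizontal axis, log2, CCl4 minus corn oil) with its 95% interval from limma; from top to bottom the 8 chemokines, 5 other CXC ligands and 5 receptors. Cxcl2 and Cxcl16 (red) have an adjusted p below 0.05, and the intervals of Cxcl1, Cxcl11, Cxcl12, Cxcl13 and Ackr3 exclude 0 before any adjustment.

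Of 7 other CXC ligands, 5 were tested and 0 changed, against 0.637% of all genes. Cxcl13, which attracts B cells, was at -3.95, -1.79 and -3.09 in CCl4 livers, against -1.94, -1.48 and -1.29 in corn oil livers. CCl4 replicate 2 lay within the corn oil range, and the change of -1.38 ± 0.53 did not pass (limma adjusted p = 0.235). Its second probe gave -1.22. Cxcl14 was at 0.11 ± 0.54 on its brighter probe (adjusted p = 0.926) and at -0.54 on the other, so its direction rests on the probe. The platelet chemokine genes Pf4 (0.37 ± 0.22; adjusted p = 0.396) and Ppbp (-0.35 ± 0.43; adjusted p = 0.681) and the mucosal Cxcl17 (-0.25 ± 0.18; adjusted p = 0.467) overlapped between the groups. Cxcl6, a further ELR chemokine, was not well above background on any array on either of its 2 probes, nor was the Cxcl13 receptor Cxcr5. Cxcl3 and the scavenger Ackr1 were not matched by accession and were not analysed here.

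Of 8 genes for enzymes that shed or trim chemokines, 6 were tested and 1 changed, against 0.637% of all genes. That was Mmp12, the macrophage metalloelastase, known to cleave ELR chemokines. It was not well above background on any corn oil array, so it entered the test through the CCl4 arrays alone. With the dimmest flagged signal as the corn oil level, it was at least 36.1-fold higher in CCl4 livers (limma adjusted p = 0.0171). Under normexp background correction its log2 change was 2.90 (adjusted p = 0.00123), a smaller rise than that bound. Its call was lost, for example, with slide as a fixed block (adjusted p = 0.183) and without CCl4 replicate 1 (0.0773) or 2 (0.108). The sheddase genes Adam10 (0.07 ± 0.17; adjusted p = 0.849) and Adam17 (-0.03 ± 0.12; adjusted p = 0.902) and the aminopeptidase gene Dpp4 (-0.13 ± 0.14; adjusted p = 0.635), whose product trims Cxcl9 to Cxcl12, did not pass. The gelatinase gene Mmp2 (0.66 ± 0.32; adjusted p = 0.306) and the membrane-type metalloprotease gene Mmp14 (-0.23 ± 0.13; adjusted p = 0.365) did not pass either.

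Of 18 inducers and parts of the NF-kappaB pathway, 11 were tested and 0 changed, against 0.637% of all genes. The 11 had a median change of -0.08 and 4 positive changes, against 5113 of all 11939 genes. Tnf, a cytokine that induces Cxcl1 and Cxcl2, was at -2.00, -1.83 and -1.31 in CCl4 livers, against -2.34, -2.04 and -2.37 in corn oil livers. The groups did not overlap, and the change was 0.54 ± 0.21 (limma adjusted p = 0.233). The receptor gene Tlr2 (0.49 ± 0.11; adjusted p = 0.101) and the subunit gene Nfkb2 (0.39; adjusted p = 0.174) were likewise higher in every CCl4 animal, which makes 3 of 11, against 11.5% of all genes. The cytokine gene Il1a was lower in every CCl4 animal (-0.42; adjusted p = 0.214), 1 of 11 against 15.9% of all genes. The inhibitor gene Nfkbia (-0.13 ± 0.46; adjusted p = 0.899), the adaptor gene Myd88 (-0.32 ± 0.19; adjusted p = 0.398) and Zfp36, which destabilises cytokine mRNAs (-0.72 ± 0.54; adjusted p = 0.490), overlapped between the groups. Il6 and Il17a were well above background on fewer than 3 arrays. Nfkb1, Rel, Relb, Nfkbiz and Tnfaip3 were not matched by accession and were not analysed here.

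The genes most like Cxcl2 across the 6 animals, by the root mean square difference of log2 values centred on each gene's mean, were the latent TGF-beta binding protein gene Ltbp2 (0.17), the ribonucleotide reductase gene Rrm2 (0.22) and Rnd1 (0.25). For Cxcl16 they were the thymosin gene Tmsb10 (0.12), Lrrc51 (0.14) and the PCNA-associated factor gene Pclaf (0.14). Being chosen for their likeness to genes that passed, they carry a similar change by construction; that of Pclaf, for example, was 1.63 ± 0.24.

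All 3 corn oil arrays and CCl4 replicate 1 were on one slide, and CCl4 replicates 2 and 3 on another that was scanned on another day. Within the first slide, where 1 CCl4 animal is assumed to vary as the corn oil animals do, the change of Cxcl2 was 2.25 (adjusted p = 0.135) and that of Cxcl16 was 1.77 (adjusted p = 0.142), and neither passed. The call of Cxcl2 was also lost without CCl4 replicate 1 (adjusted p = 0.0559), CCl4 replicate 2 (0.0723) or corn oil replicate 3 (0.0526), and that of Cxcl16 without CCl4 replicate 1 (0.106) or 2 (0.143), corn oil replicate 1 (0.0912) or 3 (0.0851), or with the replicate number as a block (0.0715). In these same runs the change was 2.05 to 2.17 for Cxcl2 and 1.55 to 1.63 for Cxcl16.

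**Figure D4:**
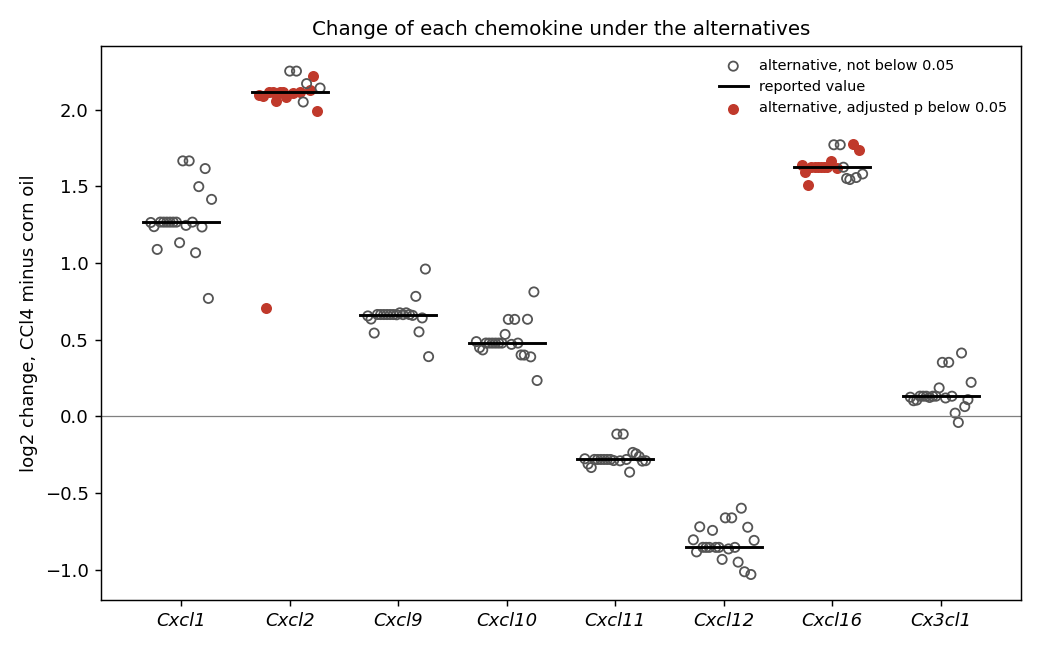
Change of each chemokine gene (vertical axis, log2, CCl4 minus corn oil) under each alternative setting, with the reported value as a black line; filled red points have an adjusted p below 0.05 and open points do not. The low filled point of Cxcl2, at 0.70, is normexp background correction, and Cx3cl1 is the gene whose values cross 0.

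The share of probes well above background was 61.9% to 64.7% on CCl4 arrays and 65.0% to 67.3% on corn oil arrays, and the dimmest signal so flagged was 16.4 to 18.5 units on CCl4 arrays and 11.8 to 14.0 units on corn oil arrays. The part of this difference in the results was not tested. From 0 to 4 probes per array were saturated, and arrays correlated at 0.973 to 0.987 between groups and 0.984 to 0.990 within groups (a correlation over genes, which do not count as replicates). All 10 hepatocyte markers were well above background on all 6 arrays. Their summed signal was 4724.0 to 5158 in CCl4 livers and 5717 to 5974 in corn oil livers. Of the 10, 5 were lower in every CCl4 animal, against 15.9% of all genes. The median change of the 10 was -0.26, and 0 passed, against 0.637% of all genes. The part of hepatocyte RNA in the chemokine levels was not tested.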

How the data were processed

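Liver RNA (0.2 µg) from 6 rats was labelled with Cy3 and hybridised singly, per the labels' protocols. The deposited scanner files hold intensity values and 0 or 1 flags per spot from Agilent Feature Extraction (release 10.7 by the submitters' processing notes), background-subtracted and not scaled between arrays. The series value table, also deposited, gives a linear ratio: each array's processed signal over a constant of 583 to 677 units (spread 0.0072% or less); that scaling step is not given in the sources used here and was read from the values.

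Of 61537 probes, 28206 matched 1 symbol by unversioned RefSeq accession (GRCr8 gene table); 1439 control spots and 26 outlier-flagged probes were left out. Log2 of the deposited signal was taken, less the same array's 75th percentile (583 to 676 units). A gene entered the test if at least 3 of 6 arrays flagged one of its probes well above background, and was read by its brightest such probe. Groups came from the treatment label and were fitted with limma 3.58.1 in R 4.3.3 (lmFit, eBayes, two-sided, Benjamini-Hochberg over all genes), which was also tested on simulated data. The labels present the samples as separate animals, and 3 arrays per group limit the precision. For a group with no array above background, folds are lower bounds set by the dimmest signal that still was. Python 3.11.15 and statmod 1.5.0 were also used. All 8 chemokines, the other ligands and the receptors were named whatever their result; from the other pathway lists, genes past the threshold, the 3 largest changes and the 2 brightest. Other genes were named after their values were seen. The members and lists were chosen with earlier results of these data known. Same-numbered animals of the groups deviated together at correlations of -0.05, 0.16 and 0.02, so the numbers were not taken as pairs. Alternatives changed the scaling, background correction, filter, probe rule, variance model, slide term, replicate block and arrays included. The planned mean spot signals were not among the columns used, and normexp used median signals.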

Additional observations from a re-analysis of the deposited data

How the results depend on the processing

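In 20 alternatives, 76 changed genes became 219 under normexp, 139 with the filter on all 6 arrays, 53 with every probe tested, 156 with a variance trend, 128 with array weights, 4 with slide as a fixed block, 0 within the first slide (1598 at an unadjusted p below 0.05) and 10 with the replicate block, a pairing the animals do not bear out. Leaving out 1 array gave 2 to 241. The 2 changed chemokines became 0 with slide as a fixed block or within the first slide, 1 with the replicate block (Cxcl2), 1 with the filter on all 6 arrays, which removes Cxcl2 itself, and 0 to 2 on leaving out 1 array. With slide as a fixed block the change was 2.25 for Cxcl2 (adjusted p = 0.109) and 1.77 for Cxcl16 (adjusted p = 0.188). The direction of Cxcl1, Cxcl2, Cxcl9, Cxcl10, Cxcl11, Cxcl12 and Cxcl16 was the same in every alternative that gave a value, and that of Cx3cl1 in 19 of 20. Signs turned for 7 named genes, none of which passed in any alternative. Leaving out 1 array gave -0.040 to 0.41 for Cx3cl1 (lowest without CCl4 replicate 2), -0.40 to 0.53 for Cxcl14, -0.071 to 0.27 for Cxcr3, -0.23 to 0.16 for Cx3cr1 and -0.57 to 0.11 for Nfkbia. With slide as a fixed block, as within the first slide, Cxcl14 was at -0.57, Cxcr3 at -0.060, Cx3cr1 at 0.22, Nfkbia at 0.60 and Zfp36 at 0.27. Cxcl14 was at -0.21 with probe means, Cx3cr1 at 0.013 with array weights, and Nfkbia at 0.037 and Irf1 at 0.019 under normexp. Cxcl2 in corn oil, Cxcr6 and Ppbp lie near background, which limits their values; the causes of these shifts were not tested.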
